A study of Mus musculus with 9 samples.

Results

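The mouse Fc gamma receptors bind the constant part of immunoglobulin G and let myeloid cells respond to antibody-coated targets. The genes described here are 3 activating receptor genes (Fcgr1, Fcgr3 and Fcgr4), the inhibitory receptor gene Fcgr2b, and Fcer1g, which encodes the common gamma chain. They were taken by gene symbol from the deposited expression tables, where all 5 were found among 24411 genes. They were measured by RNA-seq in the whole hippocampus of 9 wild type C57BL/6J mice, labelled 10 weeks old, at 3 mice per group. All mice received AAV9, an adeno-associated virus vector, in the CA1 region of both hippocampi, and tissue was taken 10 days later. CUG10 mice received AAV9-CUG10, which carries 10 CTG repeats, together with vehicle. CUG300 mice received AAV9-CUG300, which carries 300 CTG repeats and serves as a model of the toxic RNA of myotonic dystrophy type 1, with vehicle or with CWG-cPIP, a cyclic pyrrole-imidazole polyamide that binds CTG/CAG repeat DNA. The repeat thus came from a viral vector in otherwise wild-type mice, and the promoter of the vector is not given in the sources used here. No uninjected hippocampus was analysed here, so a response to AAV9 itself could not be measured. The CUG10 and CUG300 viruses were different preparations, diluted to the same titer per the study's methods. A difference between the preparations cannot be told apart from repeat length. The CUG10 vehicle mice served as the controls for repeat length, and the CUG300 vehicle mice as the controls for the compound.

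Fcgr1 encodes the high-affinity receptor, whereas Fcgr3 and Fcgr4 encode lower-affinity receptors that respond mainly to immune complexes. None of these receptors signals well alone: each pairs with the common gamma chain, whose immunoreceptor tyrosine-based activation motif (ITAM) is phosphorylated by Src-family kinases and recruits the kinase Syk. The gamma chain is also needed to hold the activating receptors at the cell surface. Fcgr2b is built differently, since its own tail carries an inhibitory motif (ITIM) that recruits phosphatases and restrains the activating receptors on the same cell. In the brain these genes are known mainly from microglia, border macrophages and blood-derived myeloid cells, and B cells use Fcgr2b as their main Fc gamma receptor. In bulk tissue, more cells of a type and more RNA per cell cannot be told apart.

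In the GENCODE annotation of GRCm38, 4 of the 5 genes lie within 275.7 kb of chromosome 1. Fcgr2b (ENSMUSG00000026656.15) occupied chr1:170958617-170976547 on the minus strand, Fcgr4 (ENSMUSG00000059089.4) chr1:171018920-171029761 on the plus strand, Fcgr3 (ENSMUSG00000059498.13) chr1:171051174-171064935 on the minus strand and Fcer1g (ENSMUSG00000058715.11) chr1:171229572-171234365 on the minus strand. Fcgr1 (ENSMUSG00000015947.10) lies apart, at chr3:96282909-96293969 on the minus strand. Fcgr2b and Fcgr3 are similar in sequence: 94 of the 1273 stretches of 75 bases in the longest Fcgr3 transcript also occurred in Fcgr2b, but no stretch of 150 bases was shared, so reads of the shorter length from a small part of these 2 genes could have been divided between them. In all, 246 of the 3470 stretches of 75 bases in the longest Fcgr2b transcript occurred in another gene, over 23 genes. Fcgr1, Fcgr4 and Fcer1g shared no 75-base stretch with another gene. Fcgr2b also overlaps an annotated antisense gene, Gm38204, and whether the counting used strand is not stated.

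The promoters are shown because interferon gamma and the myeloid factor PU.1 are textbook regulators of members of this family, not all in the same direction. The genes of that axis are described further on. RefSeq start sites of GRCm38.p6 gave windows from 250 bases before to 50 bases after the start for all 5 genes. Both strands were searched for 3 motifs, and capitals mark the match in each 30-base stretch, written 5′ to 3′ on the strand of the gene. The Fcgr1 window held a GAS match (TTCNNNGAA, the gamma-activated site) that began 109 bases before the start, at chr3:96294059-96294088 on the minus strand.
Fcgr1 GAS: aaggatgtatTTCCCAGAAaagggaacagt
The Fcgr4 window held the core of an interferon-stimulated response element (GAAA, any 2 bases, then GAAA) 73 bases before the start, at chr1:171018843-171018872 on the plus strand.
Fcgr4 ISRE core: ggtgtttctgGAAAAGGAAActggtgagat
A PU.1 core (GAGGAA, here read on the opposite strand as its complement) lay 55, 6 and 22 bases before the starts of Fcgr1, Fcgr3 and Fcgr4, at chr3:96294007-96294036 (minus), chr1:171059392-171059421 (minus) and chr1:171018892-171018921 (plus).
Fcgr1 PU.1 core: atggcaacttccTTCCTCttttctaatctt
Fcgr3 PU.1 core: gagtccatttccTTCCTCtttttgtagttc
Fcgr4 PU.1 core: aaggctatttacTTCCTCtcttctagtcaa
Of 32851 promoter windows of the same length, 8.3% held the GAS letters, 3.4% the ISRE core and 28.3% the PU.1 core. None of the matches overlapped another. No match to the 3 motifs stood in the Fcgr2b or Fcer1g windows, which says only that these letters are not in those 300 bases.

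Expression was deposited as rlog values, that is, log2-scale values after a shrinkage by DESeq2 that pulls low or noisy genes toward their mean. All 5 genes passed the filter on low values that left 14867 genes for testing. Mouse medians over these genes ran from 8.43 to 8.54, and correlations across genes within a group ran from 0.9925 to 0.9964 in CUG10, from 0.978 to 0.9851 in CUG300 vehicle and from 0.9699 to 0.9919 in CWG-cPIP mice. The tissue label was checked against 7 measured markers of hippocampal neurons, whose summed level (log2 of the summed linear values) was 14.67 to 14.76, 14.14 to 14.63 and 14.47 to 14.66 in the CUG10, CUG300 vehicle and CWG-cPIP mice. Choroid plexus markers were uneven: the mean level of 8 was 6.22 in CUG10 replicate 1, 7.79 and 9.12 in the other CUG10 mice, 8.19 to 9.43 in CUG300 vehicle mice and 6.43 to 6.51 in all treated mice. The mean level of 8 thalamic and diencephalic markers was 6.16 to 6.29, 6.24 to 6.98 and 7.23 to 7.38 in the same order of groups, highest in the treated mice.

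The first comparison asks what the longer repeat does in vehicle-injected mice. All 5 genes were higher in CUG300 vehicle than in CUG10 vehicle mice, and in none of them did a CUG300 mouse overlap a CUG10 mouse. All 5 passed limma with Benjamini-Hochberg adjustment over all genes tested at an adjusted p under 0.05, against a background of 7.37% of genes called higher and 3.34% called lower. Groups without overlap, CUG300 above, were found for 18.2% of all genes. The median difference of the 5 genes was 2.09 on the log2 scale, beside -0.01 over all genes tested. Leaving out 1 mouse could end the calls: none of the 5 was called when CUG10 replicate 1, 2 or 3 or the third CUG300 vehicle mouse was omitted, when 0 to 2 genes of the whole table were called, and 3 (Fcgr1, Fcgr3 and Fcgr4) without CWG-cPIP replicate 1, which enters only the shared estimate of the spread. In that last fit 1.45% of all genes were called higher and 0.33% lower. Over all alternatives run, the difference ran from 2.53 to 2.82 for Fcgr1, from 2.71 to 3.13 for Fcgr4, from 1.01 to 1.27 for Fcgr3, from 1.58 to 1.97 for Fcgr2b and from 1.93 to 2.29 for Fcer1g. With the choroid plexus mean as a covariate, a fit that these ranges include, none of the 5 was called (limma adjusted p from 0.0937 to 0.106). The differences in that fit were 2.6 for Fcgr1, 2.83 for Fcgr4, 1.27 for Fcgr3, 1.84 for Fcgr2b and 2.13 for Fcer1g.

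**Figure D1:**
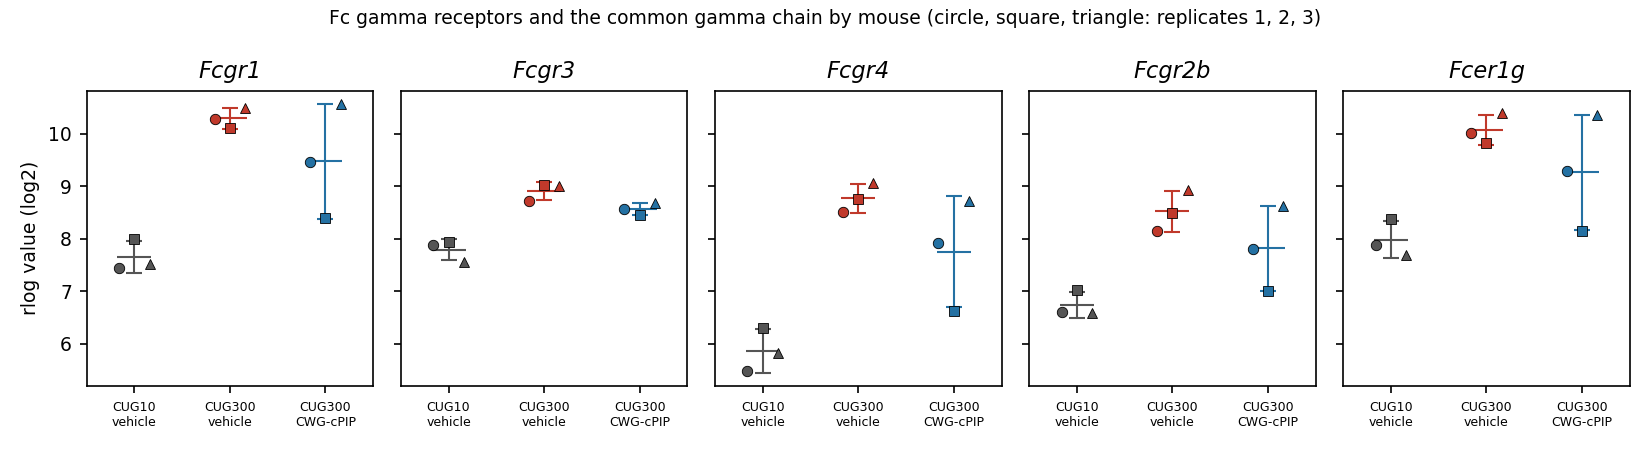
Each panel plots the rlog value (log2, vertical axis) of 1 gene in the 9 mice by group (horizontal axis), with symbols for replicates 1 to 3, the group mean as a horizontal line and the SD as error bars. The CUG300 vehicle mice lie above the CUG10 mice in every panel, and the treated mice spread widely except for Fcgr3, where they lie between 8.45 and 8.69.

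Among the activating receptors, Fcgr4 had the largest difference. Its rlog values were 5.47, 6.30 and 5.82 in the CUG10 mice and 8.50, 8.75 and 9.06 in the CUG300 vehicle mice. The lowest CUG300 mouse stood 2.21 above the highest CUG10 mouse. The difference was 2.91 ± 0.46 (SE, n = 3 and 3, limma adjusted p = 0.0207), a ratio of 7.51 on the linear scale. This SE, like the others given here, came from a spread pooled over all 9 mice. By upward difference Fcgr4 ranked 77th of the 14867 genes tested. The Fcgr4 promoter window holds the ISRE core shown above, and the part of the motifs in these differences was not tested.

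Fcgr1, the high-affinity receptor gene, was close behind. Its values were 7.44, 8.0 and 7.52 in CUG10 mice and 10.28, 10.11 and 10.50 in CUG300 vehicle mice. The 2 groups were separated by a gap of 2.11, larger than the range within either group. The difference was 2.64 ± 0.45 (SE, limma adjusted p = 0.0218), a ratio of 6.24.

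Fcgr3 rose by the smallest amount but with the least scatter. Its values were 7.88, 7.93 and 7.56 in CUG10 mice and 8.72, 9.02 and 9.01 in CUG300 vehicle mice. The difference was 1.12 ± 0.14 (SE, limma adjusted p = 0.0207), a ratio of 2.18. It ranked 663rd by difference but 6th by p among all genes tested, with an SE of 0.14 beside 0.45 for Fcgr1 and 0.46 for Fcgr4. The SE, p and intervals also carry the spread of the treated mice. Their SD was 0.12 for Fcgr3, 1.09 for Fcgr1 and 1.06 for Fcgr4. In CUG10 and CUG300 vehicle mice the SDs lay closer: 0.20 and 0.17 for Fcgr3, 0.31 and 0.20 for Fcgr1, 0.42 and 0.28 for Fcgr4. The 95% interval of the Fcgr3 difference, 0.81 to 1.44, did not reach the lower bounds of the intervals of Fcgr1 (1.63 to 3.66) and Fcgr4 (1.87 to 3.95).

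The inhibitory receptor gene and the shared signaling chain rose as well. Fcgr2b was 6.60, 7.02 and 6.59 in CUG10 mice and 8.15, 8.49 and 8.93 in CUG300 vehicle mice, a difference of 1.79 ± 0.37 (SE, limma adjusted p = 0.0261) and a ratio of 3.45. Fcer1g, on which the 3 activating receptors depend, was 7.88, 8.38 and 7.69 in CUG10 mice and 10.01, 9.82 and 10.39 in CUG300 vehicle mice. Its difference of 2.09 ± 0.46 (SE, limma adjusted p = 0.0301) is a ratio of 4.25 and lay between those of Fcgr2b and Fcgr1.

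**Figure D2:**
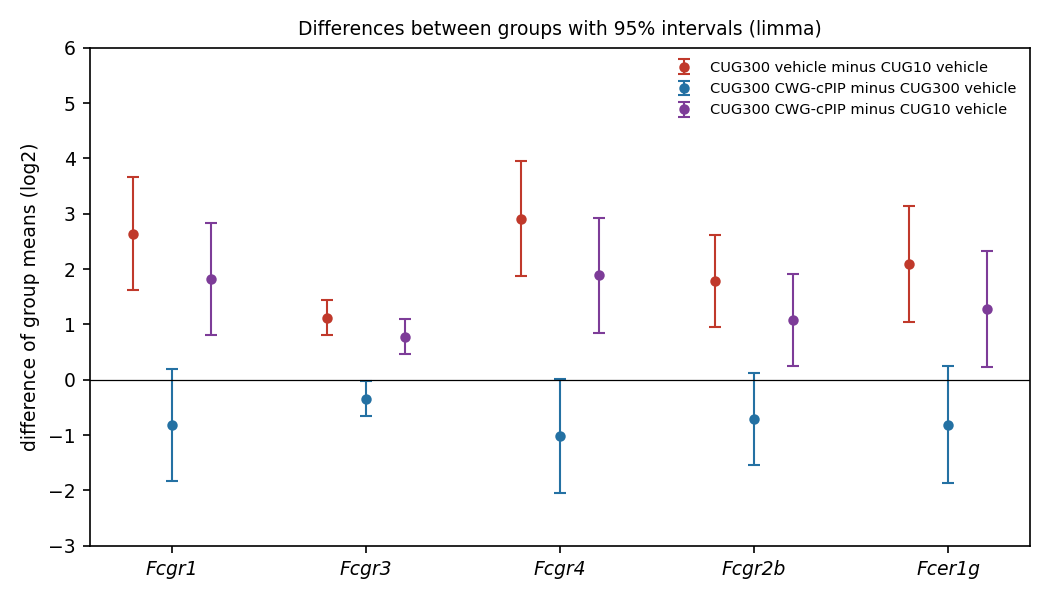
Points show the difference between group means (log2, vertical axis) of each gene (horizontal axis) in 3 comparisons, which share samples pairwise, and bars show 95% intervals from limma. The 5 intervals of CUG300 vehicle minus CUG10 vehicle lie above 0, and of CWG-cPIP minus vehicle only that of Fcgr3, from -0.66 to -0.03, excludes 0 before adjustment.

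To compare levels between genes, each rlog value was set per kilobase by subtracting the log2 length in kb of the longest coding transcript (683 bases for Fcer1g, 1256 for Fcgr4, 1347 for Fcgr3, 2589 for Fcgr1 and 3544 for Fcgr2b). In CUG10 mice the per-kb level was highest for Fcer1g (mean 8.54), followed by Fcgr3 (7.36), Fcgr1 (6.28), Fcgr4 (5.53) and Fcgr2b (4.91). The ranges of Fcgr4 (5.14 to 5.97) and Fcgr2b (4.76 to 5.19) overlapped, and no other neighbours in this order did. In CUG300 vehicle mice Fcgr1 stood in second place at 8.92 (8.73 to 9.13), above Fcgr3 at 8.49 (8.29 to 8.59). Fcgr3 and Fcgr4 (8.44, from 8.17 to 8.73) overlapped in that group, with Fcer1g at the top (10.63) and Fcgr2b at the bottom (6.70). In the treated mice the per-kb means were 9.81 for Fcer1g, 8.14 for Fcgr3, 8.10 for Fcgr1, 7.42 for Fcgr4 and 5.99 for Fcgr2b, and below Fcer1g (8.70 to 10.90) each overlapped its neighbour: Fcgr3 ran from 8.02 to 8.26, Fcgr1 from 7.01 to 9.20, Fcgr4 from 6.29 to 8.39 and Fcgr2b from 5.18 to 6.80. Fcer1g lay above Fcgr3 in that group but overlapped Fcgr1. These overlaps are of ranges across mice, whereas the genes were measured in the same mice. Within every treated mouse the per-kb level fell from Fcer1g to Fcgr1, Fcgr4 and Fcgr2b, and only the place of Fcgr3 varied. Within every CUG10 mouse Fcgr4 lay above Fcgr2b. A shorter isoform in use would raise the per-kb level of a gene, which matters most for Fcgr2b with its 4 coding transcripts.

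The balance of activating and inhibitory receptors was followed as a difference of rlog values within each mouse, in which only the change between groups has a meaning, not its sign. Fcgr4 minus Fcgr2b was -1.13, -0.72 and -0.77 in CUG10 mice and 0.35, 0.26 and 0.13 in CUG300 vehicle mice. Fcgr1 minus Fcgr2b was 0.83, 0.98 and 0.93 in CUG10 mice and 2.12, 1.62 and 1.57 in CUG300 vehicle mice. Fcgr3 minus Fcgr2b went the other way, from 1.28, 0.91 and 0.98 in CUG10 mice to 0.57, 0.53 and 0.08 in CUG300 vehicle mice. Thus the mean balance moved by 1.12 toward Fcgr4, by 0.86 toward Fcgr1 and by -0.66 for Fcgr3, with no overlap between the groups in any of the 3. The exact two-sided permutation test gave p = 0.1 for each, the smallest that 3 mice against 3 can give, and 0.15 after adjustment over the 9 comparisons of this kind. In the treated mice Fcgr4 minus Fcgr2b was 0.11, -0.39 and 0.10, all below the CUG300 vehicle mice (difference -0.31, exact permutation p = 0.1) and all above the CUG10 mice (difference 0.82, exact permutation p = 0.1). Fcgr1 minus Fcgr2b was 1.66, 1.38 and 1.95 in the treated mice and overlapped the CUG300 vehicle mice (difference -0.11, exact permutation p = 0.7). Fcgr3 minus Fcgr2b was 0.76, 1.44 and 0.07 and overlapped both vehicle groups.

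**Figure D3:**
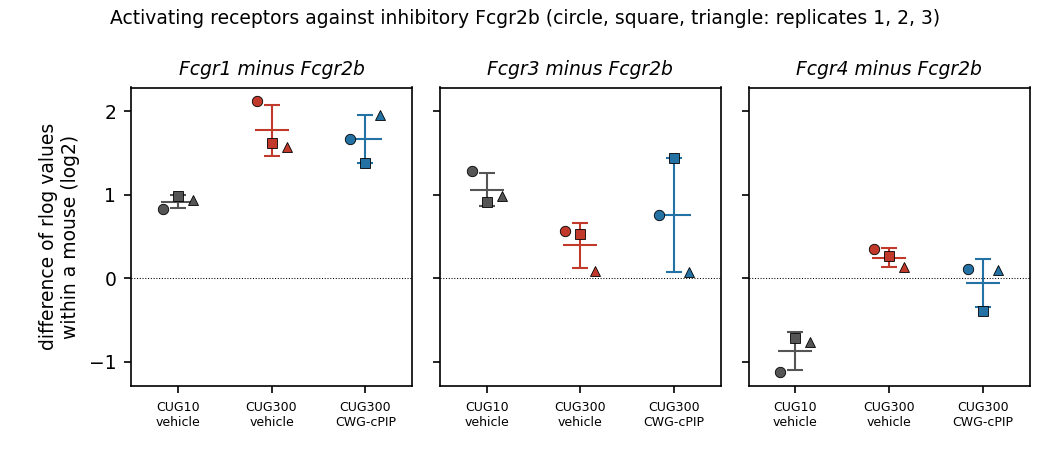
Each panel plots the difference of 2 rlog values within a mouse (log2, vertical axis), an activating receptor minus Fcgr2b, by group (horizontal axis), with symbols for replicates, the mean as a horizontal line and the SD as error bars. Relative to Fcgr2b, Fcgr1 and Fcgr4 were higher and Fcgr3 lower in all CUG300 vehicle mice than in all CUG10 mice.

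The second comparison asks how CWG-cPIP changed these genes in CUG300 mice. All 5 means were lower with the compound than with vehicle, but none of the 5 genes passed the adjusted threshold, and no gene of the whole table did (0% called in either direction by limma). At an unadjusted p under 0.05, 5.23% of genes were higher and 3.6% lower. The treated mice differed strongly among themselves. Fcgr1 was 9.46, 8.39 and 10.57, Fcgr4 was 7.92, 6.62 and 8.72, Fcgr2b was 7.81, 7.01 and 8.63 and Fcer1g was 9.29, 8.15 and 10.35 in CWG-cPIP replicates 1, 2 and 3. In all 4 genes replicate 2 was the lowest and replicate 3 the highest, and replicate 3 lay within or above the range of the CUG300 vehicle mice. Replicate 2 lay within the CUG10 range for Fcer1g, just below the highest CUG10 mouse for Fcgr2b, and above all CUG10 mice for Fcgr1 and Fcgr4. The SD of the treated group was 1.09 for Fcgr1, 1.06 for Fcgr4, 0.81 for Fcgr2b and 1.10 for Fcer1g, beside 0.20, 0.28, 0.39 and 0.29 in the CUG300 vehicle group.

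Fcgr3 was the exception in spread. Its values in the treated mice were 8.57, 8.45 and 8.69 (SD 0.12), with the same order of the mice. All 3 lay below the CUG300 vehicle mice, but by a gap of only 0.02, and 3.5% of all genes showed treated mice entirely below vehicle mice. Its difference was -0.34 ± 0.14 (SE, limma adjusted p = 0.483), and its unadjusted p of 0.0342 from the limma fit was the lowest of the 5. The differences of the others were -0.82 ± 0.45 for Fcgr1, -1.01 ± 0.46 for Fcgr4, -0.71 ± 0.37 for Fcgr2b and -0.81 ± 0.46 for Fcer1g (SE, limma adjusted p = 0.483 for each). These sizes depended on single treated mice: without CWG-cPIP replicate 3 they were -1.37, -1.50, -1.12 and -1.35, and without replicate 2 they were -0.27, -0.45, -0.31 and -0.26, in the same order of genes. The 95% intervals of Fcgr1 (-1.83 to 0.20) and Fcgr4 (-2.05 to 0.02) include both no change and a fall larger than the Fcgr2b difference between the repeat lengths, so a change by the compound was not detectable with these mice. The choroid plexus and thalamic markers given above also differed between the treated and vehicle CUG300 mice, with the treated group at the low end of the first and the high end of the second. With the choroid plexus mean as a covariate none of the 5 passed (limma adjusted p = 1 for each), and the difference was -0.65 for Fcgr3, -0.73 for Fcgr1, -0.86 for Fcgr4, -0.82 for Fcgr2b and -0.89 for Fcer1g. The part of the thalamic markers was not tested.

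The third comparison sets the treated CUG300 mice beside the CUG10 mice. The means remained above CUG10 by 1.82 for Fcgr1, 1.89 for Fcgr4, 0.78 for Fcgr3, 1.08 for Fcgr2b and 1.28 for Fcer1g, and no gene of the table passed the adjusted threshold (0% called by limma). At an unadjusted p under 0.05, all 5 were higher, beside 8.12% of all genes. The limma adjusted p ranged from 0.119 for Fcgr3 to 0.292 for Fcer1g. Every treated mouse exceeded every CUG10 mouse for Fcgr1, Fcgr3 and Fcgr4, as was the case for 13.4% of all genes, whereas Fcgr2b and Fcer1g overlapped through replicate 2. Without CWG-cPIP replicate 2 all 5 genes passed, in a fit that called 3.34% of all genes higher and 0.471% lower, and the differences were 2.37, 2.46, 0.84, 1.48 and 1.83 in the order above. Without replicate 3 they were 1.27, 1.41, 0.72, 0.67 and 0.74, and none passed. On a scale with the CUG300 vehicle mean at 0 and the CUG10 mean at 1, the treated means lay at 0.31 for Fcgr1, 0.306 for Fcgr3, 0.349 for Fcgr4, 0.397 for Fcgr2b and 0.388 for Fcer1g. Single mice ran from -0.131 (Fcer1g, replicate 3) to 0.92 (Fcer1g, replicate 2), and for Fcgr3 only from 0.197 to 0.414. This scale and the comparisons above reuse the same vehicle mice, so it is no separate evidence of a change.

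Myeloid markers were set beside these values. Of 12 microglia markers, 4 were called higher in CUG300 vehicle mice, 0 lower and 8 did not pass, with a median difference of 0.23. P2ry12, a microglial purine receptor, was 0.34 lower on the log2 scale without passing (limma adjusted p = 0.4), whereas Tmem119 (0.77), Olfml3 (0.95) and Aif1 (1.63), the gene of the calcium-binding protein IBA1, passed (limma adjusted p = 0.0265, 0.0218 and 0.0422). The summed level of the 12 markers was 12.93 to 13.28 in CUG10, 13.54 to 13.62 in CUG300 vehicle and 13.20 to 13.47 in treated mice. Of 11 tested markers of infiltrating monocytes and border macrophages, 7 were higher and 4 did not pass, with a median difference of 2.48. Those that rose included Ccr2 (2.82, limma adjusted p = 0.0207), the receptor that draws monocytes into tissue, Ly6c2 (4.52, limma adjusted p = 0.0213) and Plac8 (4.38, limma adjusted p = 0.0221). The 4 that did not pass, with differences of 0.36, 0.32, 0.34 and 0.19, were Mrc1, Cd163, Lyve1 and Pf4, markers of resident border macrophages, which are named here after their values were seen. Ms4a7 (2.54, limma adjusted p = 0.045) and F13a1 (1.22, limma adjusted p = 0.0267), also expressed by border macrophages and likewise named afterwards, were among those that rose. The summed monocyte and border macrophage level was 8.71 to 9.08 in CUG10, 12.07 to 12.69 in CUG300 vehicle and 9.60 to 12.57 in treated mice.

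The mean monocyte and border macrophage level also differed among the treated mice in the order seen for the Fc gamma receptors. It was 6.56, 5.85 and 7.38 in replicates 1, 2 and 3, while the microglia mean was 9.15, 9.01 and 9.12. This order was not particular to monocytes. Among the lists described below, the interferon gamma axis (8.69, 7.97 and 9.24) and dendritic cells (5.42, 5.05 and 6.03) also had it. So did the T and NK cell, B and plasma cell and ITAM signaling means. The microglia, hippocampal neuron, choroid plexus and thalamic means did not, nor did the single genes Kit and Jchain. In the vehicle groups the monocyte mean was 5.05 to 5.32 (CUG10) and 7.13 to 7.56 (CUG300). The part of infiltrating cells in the receptor values was not tested. The 5 genes were also taken relative to the mean of the 12 microglia markers in the same mouse. On that scale the CUG300 vehicle means exceeded the CUG10 means by 2.26 for Fcgr1, 2.53 for Fcgr4, 0.75 for Fcgr3, 1.41 for Fcgr2b and 1.71 for Fcer1g. The microglia mean itself was 8.72 to 9.07 in CUG10 and 9.20 to 9.27 in CUG300 vehicle mice, so these differences largely repeat those without the reference. How many of all genes separate the groups on this scale was not counted. The monocyte and border macrophage mean was not used as a reference. The median difference of that list, 2.48, was larger than the differences of Fcgr3, Fcgr2b and Fcer1g. On the scale relative to the microglia markers the treated and vehicle CUG300 mice overlapped for all 5 genes, with differences from -0.87 (Fcgr4) to -0.20 (Fcgr3).

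**Figure D4:**
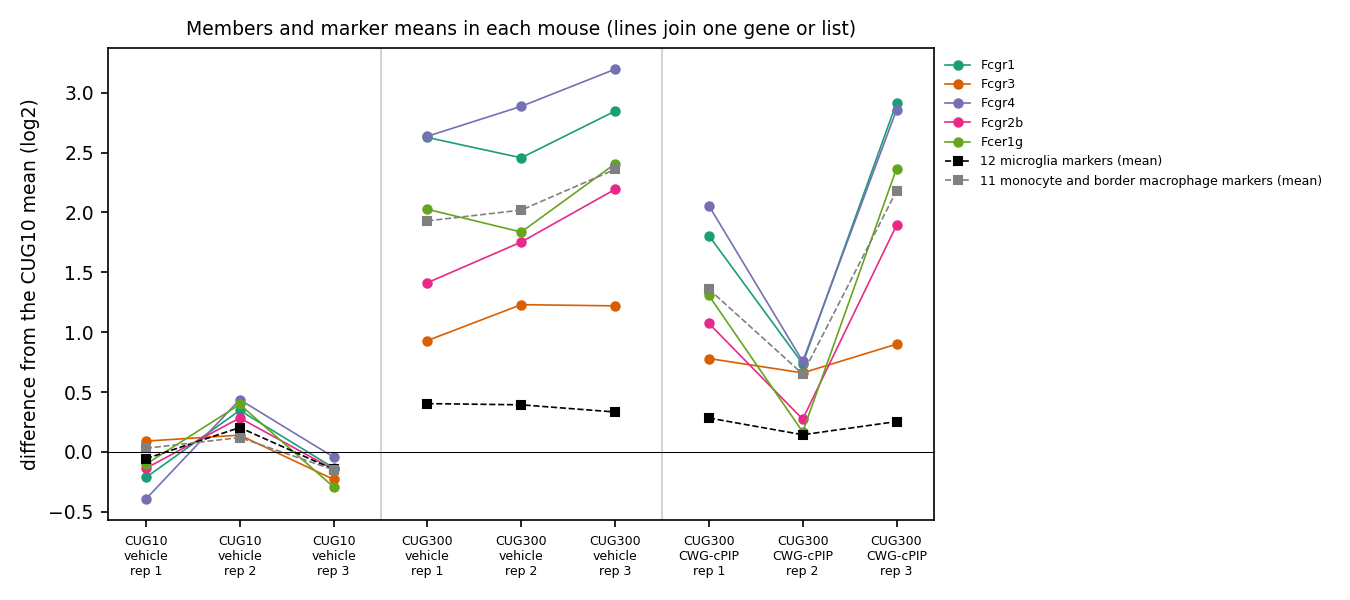
Each point is the difference of a mouse from the CUG10 mean (log2, vertical axis) for the 5 genes and for the means of 12 microglia and 11 monocyte and border macrophage markers, with the 9 mice along the horizontal axis. Lines only link points of 1 gene or list within a group, and the mice have no order. The monocyte mean and 4 of the genes drop in CWG-cPIP replicate 2 and are high in replicate 3, whereas Fcgr3 and the microglia mean vary little among the treated mice.

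Markers of other cells that carry or answer Fc receptors were counted in the same way. T and NK cell markers were higher for 6 of 8 tested (median 1.23), B and plasma cell markers for 2 of 6 (median 0.96) and dendritic cell markers for 2 of 6 (median 0.49). The summed T and NK level was 7.21 to 7.70, 8.99 to 9.44 and 7.52 to 9.56 in CUG10, CUG300 vehicle and treated mice, and that of B and plasma cells 6.90 to 7.18, 7.50 to 9.33 and 7.07 to 7.76. The summed dendritic cell level was 7.85 to 8.22, 8.83 to 9.43 and 8.03 to 9.27. Of 7 neutrophil markers found, only 1 passed the filter on low values, and it was not called. Of the mast cell markers only Kit, which neurons also express, passed the filter, and it was lower in CUG300 vehicle mice (-0.70, limma adjusted p = 0.0227). None of the hippocampal neuron, choroid plexus or thalamic markers was called by limma in this comparison, and 2 of 7, 0 of 8 and 4 of 8 had an unadjusted p under 0.05, beside 30.5% of all genes in either direction. No listed marker was at 0 in all mice. The part of these cells in the receptor values was not tested.

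The wider Fc receptor pathway is given by lists of genes in the order of the signal, and none of their genes passed limma in either comparison with the treated mice. Against vehicle, 1 other Fc receptor gene and 1 signaling gene had an unadjusted p under 0.05, and the list medians of treated minus vehicle ran from -0.55 (signaling below the ITAM) to -0.19 (inhibitory phosphatases and adaptors), apart from Jchain at -1.64. Among 12 other Fc receptor genes 5 were tested and 1 was called higher in CUG300 vehicle mice (median difference 0.32). That gene was Trim21, the cytosolic antibody receptor and an interferon-induced gene, with rlog values of 7.01, 7.59 and 7.29 in CUG10 mice and 9.84, 9.65 and 9.89 in CUG300 vehicle mice (difference 2.50, limma adjusted p = 0.0213). Fcgrt, the neonatal receptor that carries immunoglobulin G across cells, differed by 0.13 (limma adjusted p = 0.616) and Fcrls, a microglial Fc receptor-like gene, by -0.12 (limma adjusted p = 0.671). Fcrla differed by 1.05 at a limma adjusted p of 0.0512.

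The ligand, immunoglobulin G, could not be followed, since the symbols of 11 antibody constant genes matched no row. The list also held Jchain, the joining chain made by plasma cells for polymeric IgM and IgA and not a part of immunoglobulin G. Jchain was 5.63, 6.74 and 5.55 in CUG10 mice, 7.94, 10.04 and 11.79 in CUG300 vehicle mice and 8.48, 8.14 and 8.24 in treated mice. It was higher in CUG300 vehicle than in CUG10 mice by 3.95 (limma adjusted p = 0.0248). Its treated mice lay close together, unlike those of 4 of the 5 receptor genes, and its CUG300 vehicle mice lay far apart.

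Of 6 tested genes listed as receptors that pair with the Fcer1g chain in place of an Fc gamma receptor, 3 were called higher and 3 did not pass (median 1.00). The list also held Clec4a2, which carries an ITIM of its own and was not called (0.31, limma adjusted p = 0.204). Clec4e, the C-type lectin Mincle, differed by 2.02 (limma adjusted p = 0.0276) and Pira2, a paired immunoglobulin-like receptor, by 1.53 (limma adjusted p = 0.0444), while Clec4n differed by 0.51 (limma adjusted p = 0.108). Under quantile normalization and with no filter only 1 of the 6 was called, and the call of Pira2 was lost in both. Below the ITAM, 15 of 22 signaling genes were higher, 0 lower and 7 did not pass (median 1.27). The 15 include Tyrobp (1.29, limma adjusted p = 0.0479), which encodes an ITAM-bearing chain of its own and not a step below the ITAM. The Src-family kinase genes Lyn (1.59, limma adjusted p = 0.0244) and Fgr (2.32, limma adjusted p = 0.0314) rose. Syk, the kinase recruited by the phosphorylated ITAM, was 6.42, 6.92 and 6.47 in CUG10 mice and 7.10, 7.82 and 8.46 in CUG300 vehicle mice, and its difference of 1.19 did not pass (limma adjusted p = 0.0837).

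Below the ITIM fewer of the listed genes were called. Of 11 phosphatases and adaptors that act below the ITIM, 3 were higher, 0 lower and 8 did not pass (median 0.62). This count moved with the processing. In the fit of only the 2 groups compared 6 of the 11 were called higher, beside 16 of 22 signaling genes below the ITAM. Under quantile normalization and with no filter 2 of the 11 were. Inpp5d, the gene of the lipid phosphatase SHIP1 that Fcgr2b recruits, differed by 0.95 (limma adjusted p = 0.0476), Ptpn6, the gene of SHP-1, by 1.84 (limma adjusted p = 0.0246) and the adaptor gene Dok1 by 1.26 (limma adjusted p = 0.059). The rest that did not pass are named here after their values were seen. They were Dok3 (0.87), Dok2 (0.62), Cblb (0.17), Ubash3b (0.15), Inppl1 (-0.03), Ptpn11 (-0.28) and Cbl (-0.52). Of 12 tested genes listed as ITIM-bearing receptors other than Fcgr2b, 7 were higher, 1 lower and 4 did not pass (median 1.06). The list was drawn too widely. Lilr4b (2.23, limma adjusted p = 0.0316) and Laptm5 (1.25, limma adjusted p = 0.0265), both among the 7, are not ITIM-bearing receptors. Lilrb4a (3.01, limma adjusted p = 0.0255), Cd72 (3.00, limma adjusted p = 0.0267) and Pirb (2.77, limma adjusted p = 0.0267) rose by more than Fcgr2b did. The gene that fell was Sirpa (-0.38, limma adjusted p = 0.0325), the receptor for the "do not eat me" signal CD47, which neurons also express. Sirpa is named here after its value was seen, and its call was lost under quantile normalization and in the fit of only the 2 groups compared. A difference in the share of calls between the activating and inhibitory lists was not tested. The lists were not matched for how far their genes are restricted to myeloid cells, so their shares of calls cannot be set against each other.

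The genes whose motifs were searched in the promoters belong to the interferon gamma axis and the myeloid transcription factors, where 8 of 12 were higher, 0 lower and 4 did not pass (median 1.44). Ifng itself was low, at 3.22, 3.29 and 3.19 in CUG10 mice and 4.13, 3.79 and 3.78 in CUG300 vehicle mice (difference 0.67, limma adjusted p = 0.0521), and its receptor gene Ifngr1 differed by 0.72 (limma adjusted p = 0.0536). Irf1 (2.93, limma adjusted p = 0.0207), a transcription factor induced by interferon gamma, and the chemokine gene Cxcl9 (3.09, limma adjusted p = 0.0239) rose. Spi1, the gene of PU.1, also rose (1.79, limma adjusted p = 0.0328) and was named for the motif after its value was seen. As with the 5 receptor genes, no gene of these lists was called higher when any CUG10 mouse or the third CUG300 vehicle mouse was omitted. When the first treated mouse was omitted and 1.45% of all genes were called higher, the counts called higher were 1 of 22 below the ITAM, 3 of 12 in the interferon gamma axis and 0 in both inhibitory lists, with 1 of 12 microglia, 5 of 11 monocyte and border macrophage and 1 of 8 T and NK cell markers.

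**Figure D5:**
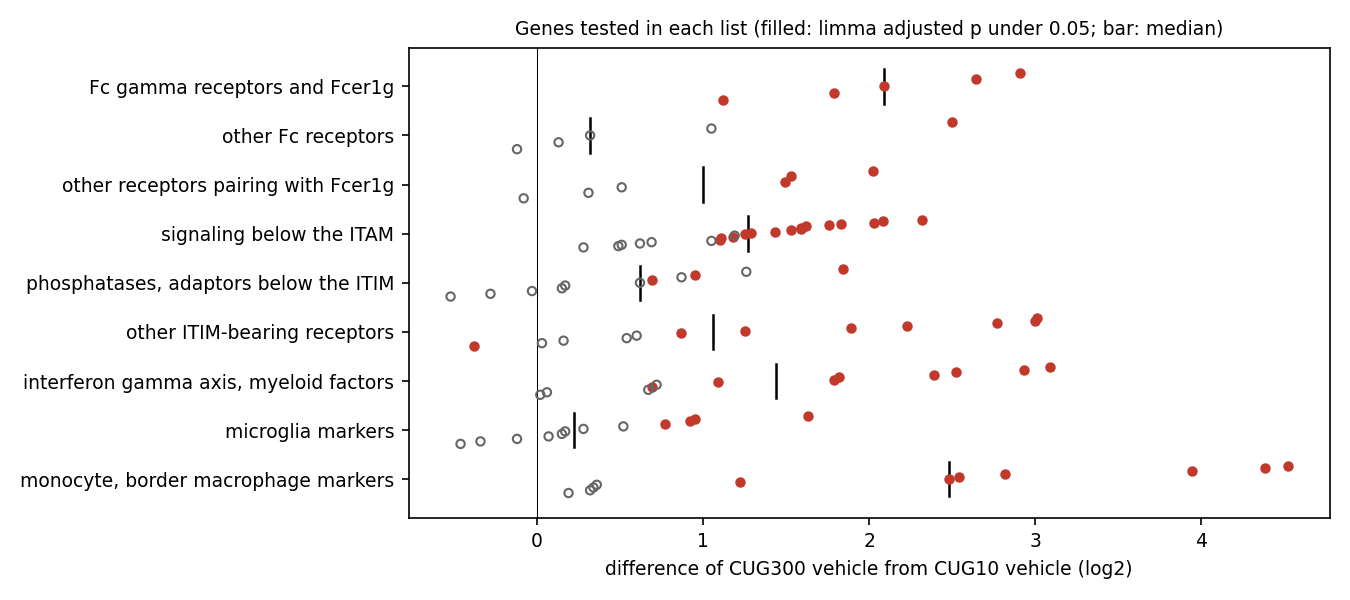
Each point is a tested gene, placed by its difference of CUG300 vehicle from CUG10 vehicle mice (log2, horizontal axis) within its list (vertical axis), filled where the limma adjusted p was under 0.05, with a bar at the median of the list. The 5 Fc gamma receptor genes, median 2.09, are all filled, while 1 of 5 other Fc receptor genes and 3 of 11 inhibitory phosphatases and adaptors are.

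Likeness of pattern was measured as the root mean square difference over the 9 mice between 2 profiles, each set to 0 at its CUG10 mean. Within the family Fcgr1 and Fcgr4 were most alike (0.22), followed by Fcgr2b and Fcer1g (0.29). Fcgr3 stood farthest from Fcgr4 (1.31) and Fcgr1 (1.17), and closest to Fcgr2b (0.55). Fcgr1 is on another chromosome than Fcgr4, and Fcgr3 is the nearest family neighbour of Fcgr4 on chromosome 1, so likeness of pattern did not follow position. Over all genes tested, the nearest to Fcgr1 were Ch25h (0.12), Il18bp (0.13) and Uba7 (0.13), and the nearest to Fcgr4 were Ms4a6b (0.13), Tap1 (0.14) and Parp10 (0.15). The nearest to Fcgr2b were Itgb2 (0.07), Naip2 (0.09) and Vav1 (0.09), and those to Fcer1g were H2-T10 (0.10), Tnfrsf1b (0.12) and AB124611 (0.13). Fcgr3 was closest to Lair1 (0.14), Ciita (0.14) and Arsj (0.16). These distances describe the same 9 mice and carry no test.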

How the data were processed

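RNA of the hippocampus was sequenced from 9 mice in 3 groups, as the labels give them. Reads were trimmed with Trim Galore 0.6.6 and aligned and quantified with STAR 2.7.9a and RSEM 1.3.3 on mm10, and the authors deposited 1 table of DESeq2 1.36.0 rlog values (log2) per mouse, per the labels and the submitters' processing notes. Which annotation and rlog options were used, and whether counting took strand into account, is not given in the sources used here. rlog shrinks low or noisy genes, so differences of such genes are understated, and with no counts the depth is unknown.

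The 9 tables were joined by row. Of 24411 genes, 5175 were at 0 in all mice, and 14867 with a mean of at least log2(10) were tested with limma 3.58.1 (R 4.3.3, trend, all 3 groups in 1 fit, Benjamini-Hochberg adjustment, called at an adjusted p under 0.05). The fit was tested on simulated data. Single values were compared by exact two-sided permutation over mice. The labels do not say whether replicates were separate cohorts, so p-values measure the spread between these mice. Annotation was GENCODE M21 (GRCm38), and promoter sequences were RefSeq GRCm38.p6, matched by symbol. The genes, lists and tests were chosen with earlier results of these data known. Named genes were the 5 receptor genes, the first 2 and the 2 with the largest difference in each pathway list and in the microglia and monocyte lists, and the 3 nearest profiles of each receptor gene. In the other marker lists genes were counted and not named, Kit excepted, and 1 gene that the rule names is not reported here. Alternatives changed the centring, filter, limma options, samples, replicate block, a choroid plexus covariate and the threshold.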

Additional observations from a re-analysis of the deposited data

How the results depend on the processing

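For the longer repeat, 5 genes were called under median centring, quantile normalization, no filter, a filter at log2(100), limma without trend, limma robust and a fit of only the 2 groups. With the mean of the choroid plexus markers as a covariate 0 were called, when 1 gene of the whole table was, and at an adjusted p under 0.01 also 0. Leaving out 1 mouse gave 0 to 5 calls in this comparison and, for treated against CUG10 mice, 0 to 5 against 0 with all mice. The compound against vehicle gave 0 under every alternative run. Correlations of deviations between mice of the same replicate number ran from -0.5 to 0.41. They were not set beside mice of unlike numbers, so they cannot decide whether the numbers pair the mice. With the replicate as a block 5 genes were called. The marker lists of B and plasma cells and of dendritic cells went from 2 genes called higher to 1 each under quantile normalization and with no filter. No difference of the 5 genes changed sign in any alternative run. Over the whole table, 1592 genes were called and 68.8% of them were higher, but 52.8% of 1922 under median centring and 58.0% of 1530 under quantile normalization.

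Relative to the median in place of the mean of the microglia markers, the differences of CUG300 vehicle from CUG10 mice were 1.83 for Fcgr1, 0.97 for Fcgr2b, 0.31 for Fcgr3, 2.09 for Fcgr4 and 1.27 for Fcer1g. On that scale Fcgr3 was 0.32 for treated against CUG10 mice and turned from -0.20 to 0.01 for treated against vehicle mice. Leaving out 1 mouse, Fcgr1 minus Fcgr2b, treated against vehicle, ran from -0.25 to 0.07 (-0.11 with all mice), above 0 without CWG-cPIP replicate 2 (0.03) or CUG300 vehicle replicate 1. Fcgr3 minus Fcgr2b, treated against CUG10, ran from -0.64 to 0.05 (-0.30 with all mice), above 0 without CWG-cPIP replicate 3, and Fcrls from -0.22 to 0.05 (-0.12 with all mice), above 0 without CUG300 vehicle replicate 2. The cause was not tested. Depth is unknown, 3 mice per group cannot give an exact p under 0.1, and the calls for the longer repeat sit close to their threshold.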
